A study of Mus musculus with 12 samples.

Results

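The 10 genes described here are 7 genes for chains of the fibrillar collagens (Col1a1, Col1a2, Col3a1, Col5a1, Col5a2, Col2a1 and Col11a1), the bone matrix genes Sparc and Bglap, and the laminin gene Lamb2, out of 32285 genes in the deposited table. They were taken by gene name, and the list was drawn up with their lower level in 3-month-old (3MO) than in 1-month-old (1MO) Ly6d- CLPs already known, so that contrast is given for them as a description without a test. The study profiled RNA of bone marrow (BM) common lymphoid progenitors without surface Ly6d, a marker of B-lineage commitment (Ly6d- CLPs), and of multipotent progenitors that carry Flk2 and precede them (Flk2+ MPPs), to look for age-associated changes in progenitors that give rise to T cells. All 12 libraries came from BM of WT C57BL6/J mice, with 3 libraries each of 1MO Ly6d- CLPs, 3MO Ly6d- CLPs, 1MO Flk2+ MPPs and 3MO Flk2+ MPPs. The study describes the 3 libraries of a group as independent experiments, and the cells were lineage-depleted and sorted from long bones. The question asked of the 10 genes was whether the libraries with high collagen were also those with high stromal genes.

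Fibrillar collagens are secreted as triple helices that assemble into the fibrils of bone, skin, tendon and cartilage. Type I collagen, the main protein of bone, joins Col1a1 and Col1a2 chains, type III is made of Col3a1, type V chains (Col5a1, Col5a2) help to start fibrils, and types II and XI (Col2a1, Col11a1) are known mainly from cartilage. Sparc (osteonectin) binds collagen and mineral, Bglap (osteocalcin) is made by mature osteoblasts, and Lamb2 is the beta 2 chain of laminins, which lie in basement membranes and not in fibrils. In the marrow these proteins are known as products of osteoblasts, fibroblasts, other stromal cells and vessels rather than of lymphoid progenitors.

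The libraries held between 8889083 and 20677785 estimated counts, with a median of 13208993, and 12379 to 15512 genes with a count. Levels are given as CPM, the counts divided by a library size scaled by the TMM method, on which 3 counts, taken here as the limit that a count of 0 allows, were worth 0.148 to 0.329 CPM depending on the library. Of the genes of the sorted cells, Flt3, which encodes Flk2, lay between 1100 and 1520 CPM over all libraries, Ly6d, the marker the sorted CLPs lack, between 0 and 7.26 CPM, and Il7r, a receptor of lymphoid progenitors, between 299 and 402 CPM in Ly6d- CLPs against 5.24 to 18.5 CPM in Flk2+ MPPs. In these bulk libraries fewer cells of a type and less RNA per cell cannot be told apart. The p-values of the main edgeR fit rest on the spread between libraries within groups, with an estimate shared by the 4 groups of 3 libraries.

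The genes lie on 7 chromosomes of mm10 (GRCm38, GENCODE M21), so most of them are not neighbours. Col1a1 (ENSMUSG00000001506) is at chr11:94936224-94953042, Col1a2 (ENSMUSG00000029661) at chr6:4504814-4541544, Sparc (ENSMUSG00000018593) at chr11:55394500-55423183, Bglap (ENSMUSG00000074483) at chr3:88383501-88384464 and Lamb2 (ENSMUSG00000052911) at chr9:108479736-108490530. The other fibrillar genes are Col3a1 (chr1:45311538-45349706), its neighbour Col5a2 (chr1:45374321-45503282, opposite strand), Col5a1 (chr2:27886425-28039514), Col2a1 (chr15:97975602-98004695) and Col11a1 (chr3:114030540-114220718). All of them are protein-coding. Col5a1 shares 99 and 113 exon bases with 2 noncoding genes of the opposite strand, and Col3a1 shares 141 with a miRNA gene, so reads over those bases are of uncertain origin. Bglap lies beside its near-identical copies Bglap2 and Bglap3, between which Salmon divides reads. Bglap3 had no count in any library and Bglap2 at most 0.548 CPM.

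RefSeq start regions (GRCm38.p6) were at hand for 7 of the 10 genes, and in 3 of them, Col3a1, Col11a1 and Bglap, the 250 bases before the start touched no gene or exon of GENCODE M21. These 3 are shown because they touched neither. Of the genes outside type I collagen, Col11a1 followed it the most closely below and Col3a1 the least, and Bglap is the gene most restricted to bone. Capitals mark the CCAAT box (read as ATTGG on the other strand), the TATA box spelled TATAAA (other strand, TTTATA) and the GC box spelled GGGCGG (other strand, CCGCCC), and the marked motifs do not overlap one another. The sequences read 5′ to 3′ on the strand of the gene, Col11a1 at chr3:114030290-114030539 (+), Bglap at chr3:88384467-88384716 (-) and Col3a1 at chr1:45311288-45311537 (+).
Col11a1: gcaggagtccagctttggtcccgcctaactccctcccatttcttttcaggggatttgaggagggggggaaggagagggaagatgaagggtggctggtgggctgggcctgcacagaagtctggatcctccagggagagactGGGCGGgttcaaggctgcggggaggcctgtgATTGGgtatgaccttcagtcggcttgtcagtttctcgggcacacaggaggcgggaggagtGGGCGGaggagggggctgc
Bglap: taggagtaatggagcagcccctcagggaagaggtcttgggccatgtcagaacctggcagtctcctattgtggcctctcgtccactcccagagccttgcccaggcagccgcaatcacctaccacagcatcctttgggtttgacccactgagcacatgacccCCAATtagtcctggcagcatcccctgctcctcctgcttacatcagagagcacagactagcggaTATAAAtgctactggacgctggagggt
Col3a1: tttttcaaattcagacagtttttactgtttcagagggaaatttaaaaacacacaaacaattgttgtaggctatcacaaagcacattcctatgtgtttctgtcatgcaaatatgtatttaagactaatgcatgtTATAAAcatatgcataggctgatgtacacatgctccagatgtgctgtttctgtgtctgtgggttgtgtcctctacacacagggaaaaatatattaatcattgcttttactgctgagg
The Col11a1 region held 1 CCAAT box and 2 GC boxes, the Bglap region 1 CCAAT box and 1 TATA box, and the Col3a1 region 1 TATA box. Over all 7 regions, 3 held a CCAAT box, 2 a TATA box and 3 a GC box, against 33.8%, 12.4% and 32.7% of 32851 start regions of the same length. A match describes letters and not a bound site.

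Type I collagen was the most abundant fibrillar collagen and was high in 1MO Ly6d- CLPs. Per kilobase of the principal transcript, the mean level in 1MO Ly6d- CLPs was 37.6 CPM for Col1a1 and 18.7 CPM for Col1a2, followed by 6.04 CPM for Sparc, 3.59 CPM for Bglap and 2.48 CPM for Lamb2, and it was 0.183 to 1.17 CPM for the 5 other fibrillar genes. Col1a1, the alpha 1 chain, was at 399.8, 133.5 and 136 CPM in 1MO Ly6d- CLPs, 1.92, 0 and 0 CPM in 3MO Ly6d- CLPs, 30.0, 49.6 and 2.11 CPM in 1MO Flk2+ MPPs and 0, 5.46 and 0.354 CPM in 3MO Flk2+ MPPs. All 3 libraries of 1MO Ly6d- CLPs lay above every other library, and replicate 1 was well above the other two. In that library Col1a1 was above 96.6% of the tested genes, while both other libraries placed it above 85.5% and 86.1%. Col1a2, the alpha 2 chain, was at 168, 65.8 and 66.7 CPM in 1MO Ly6d- CLPs, 0, 0 and 1.66 CPM in 3MO Ly6d- CLPs, 14.9, 26.1 and 5.66 CPM in 1MO Flk2+ MPPs and 5.92, 5.46 and 4.39 CPM in 3MO Flk2+ MPPs. The order of the groups was that of Col1a1, except that all 3 libraries of 3MO Flk2+ MPPs kept some Col1a2 and lay above all 3 of 3MO Ly6d- CLPs.

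In Ly6d- CLPs the mean of Col1a1 was 223 ± 153 CPM (SD, n = 3) at 1MO and 0.639 ± 1.11 CPM at 3MO, a ratio of 349. For Col1a2 it was 100.2 ± 58.9 CPM against 0.553 ± 0.958 CPM, a ratio of 181. Without replicate 1 the 1MO means were 135 and 66.2 CPM, lower by factors of 1.66 and 1.51, and still above every 3MO library. A single 3MO library held all the Col1a1 counts of its group (19 counts, replicate 1) and another all the Col1a2 counts (21 counts, replicate 3), so neither 3MO mean describes the group well. In ratios with 1 library left out, computed here and below after the data were seen, the ratio without the 3MO library that holds the counts became at least 1108 for Col1a1 and at least 428 for Col1a2, and without replicate 1 of 1MO it was 211 and 119.7.

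**Figure D1:**
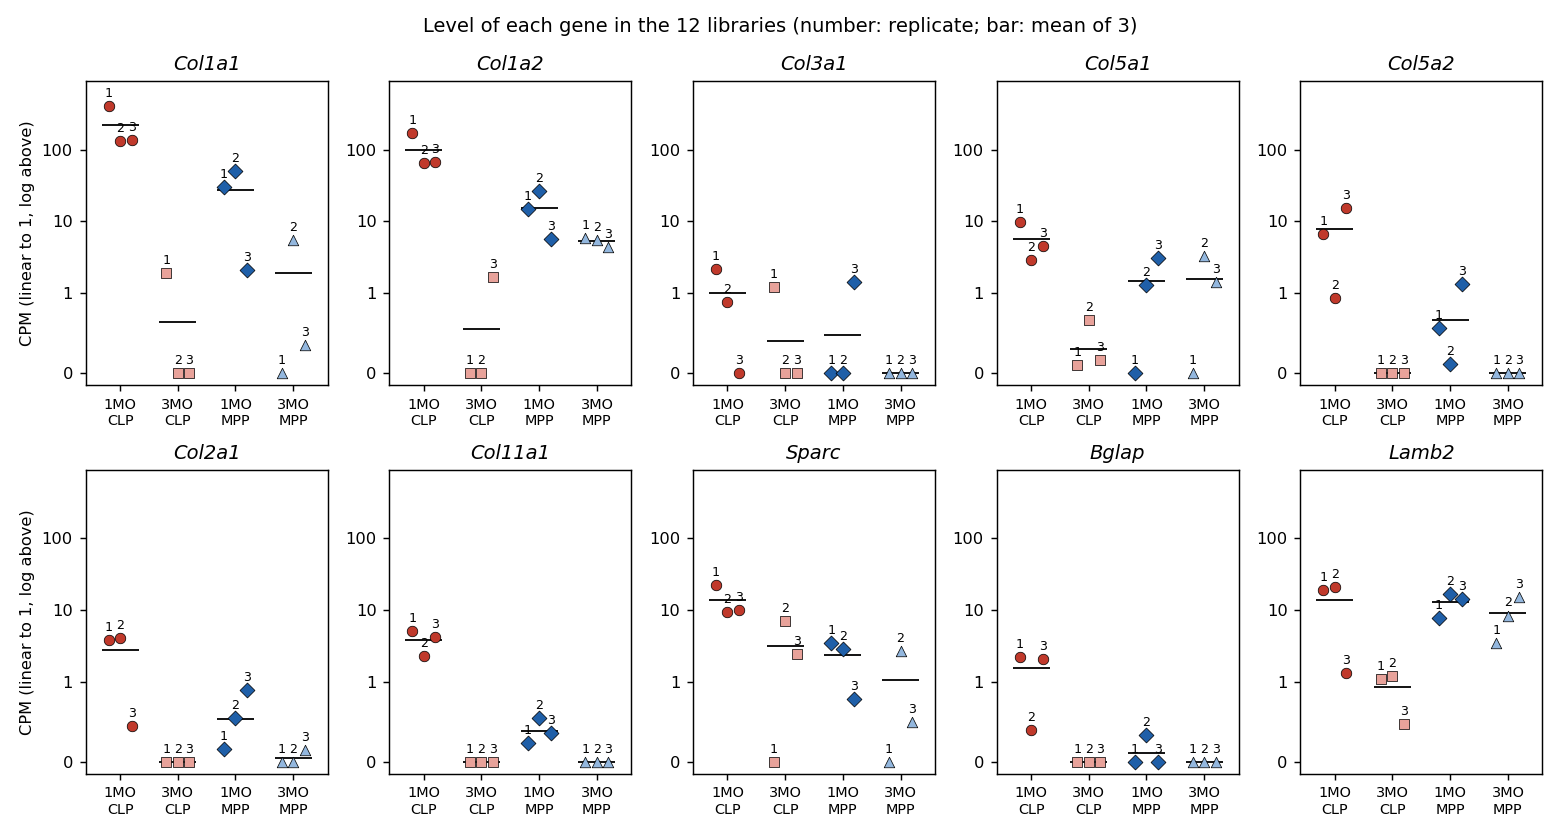
CPM of each of the 10 genes (vertical axis, linear up to 1 CPM and logarithmic above) in the 3 libraries of each group, with the replicate number beside each point and a bar at the mean. The highest point of every panel is a 1MO CLP library, and Col5a2, Col2a1, Col11a1 and Bglap are at 0 in all 3 libraries of 3MO CLPs.

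Type I collagen joins 2 alpha 1 chains with 1 alpha 2 chain, and the transcripts of both chains stood close to that proportion wherever they were abundant. Per kilobase of the principal transcript, the level of Col1a1 was 2.14, 1.83 and 1.84 times that of Col1a2 in 1MO Ly6d- CLPs, and 1.82 and 1.71 times in replicates 1 and 2 of 1MO Flk2+ MPPs. It was 0.336 times in replicate 3 of 1MO Flk2+ MPPs, and 0, 0.902 and 0.0727 times in 3MO Flk2+ MPPs. The 4 libraries with the smaller ratios held 4.39 to 5.92 CPM of Col1a2, thus 56 to 94 counts of Col1a2 beside 0 to 76 counts of Col1a1. The proportion of the chains thus differed among the libraries of Flk2+ MPPs, and this was not tested.

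**Figure D2:**
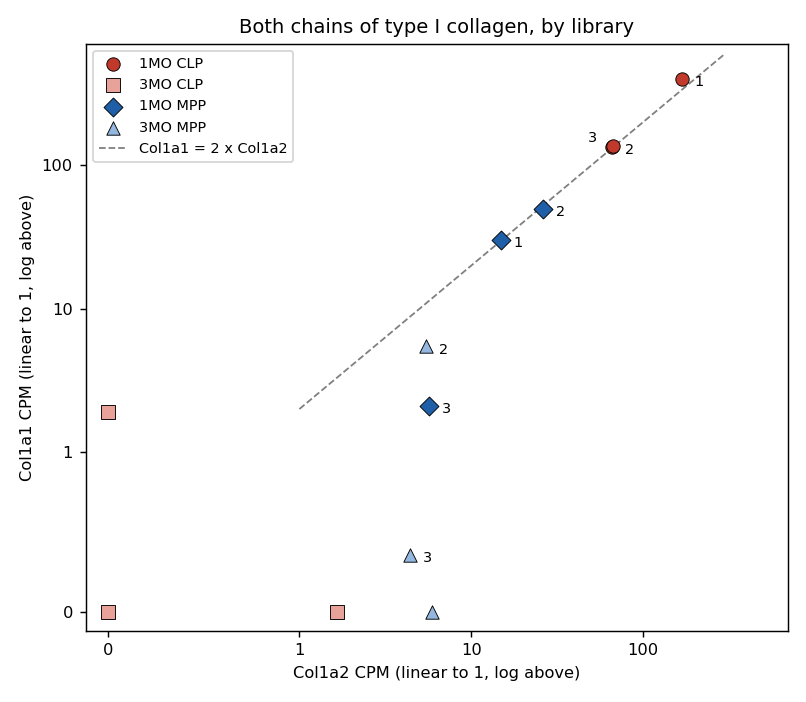
Col1a1 against Col1a2, both in CPM (linear up to 1 CPM, logarithmic above), for the 12 libraries, with replicate numbers where points leave room and a dashed line at 2 Col1a1 for each Col1a2. The 3 libraries of 1MO CLPs and 2 of 1MO MPPs lie near the line, and the other libraries with 4 to 6 CPM of Col1a2 lie below it.

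The minor fibrillar collagens were far below type I and were again highest in 1MO Ly6d- CLPs. In CPM without regard to length, type I chains made up 95.4%, 94.7% and 89.2% of the sum of the 7 fibrillar genes in these 3 libraries. Col5a1 was at 9.71, 2.86 and 4.50 CPM in 1MO Ly6d- CLPs, 0.101, 0.663 and 0.158 CPM in 3MO Ly6d- CLPs, 0, 1.32 and 3.07 CPM in 1MO Flk2+ MPPs and 0, 3.31 and 1.42 CPM in 3MO Flk2+ MPPs. Its ages did not overlap in Ly6d- CLPs (ratio of means 18.5, but 11.98 without replicate 1 of 1MO and 43.95 without replicate 2 of 3MO) and were nearly equal in Flk2+ MPPs. Its partner Col5a2 was at 6.74, 0.938 and 15.5 CPM in 1MO Ly6d- CLPs and 0.562, 0.110 and 1.32 CPM in 1MO Flk2+ MPPs, and had no count in the 6 libraries of 3MO. Col5a2 was thus highest in replicate 3, where its CPM was 0.232 of that of Col1a2, against 0.0143 in replicate 2.

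The cartilage-type chains had few counts outside 1MO Ly6d- CLPs. Col11a1 was at 5.12, 2.32 and 4.19 CPM in 1MO Ly6d- CLPs and 0.241, 0.548 and 0.361 CPM in 1MO Flk2+ MPPs, and had no count in any 3MO library. Col2a1 was at 3.87, 4.10 and 0.444 CPM in 1MO Ly6d- CLPs and 0.161, 0.548 and 0.903 CPM in 1MO Flk2+ MPPs, and at 3MO a library of Flk2+ MPPs held 2 counts and the other 5 none. Replicate 3 of 1MO Ly6d- CLPs was therefore low for Col2a1 and not for Col11a1. Col3a1 showed no such pattern: it was at 2.16, 0.889 and 0 CPM in 1MO Ly6d- CLPs, 1.21, 0 and 0 CPM in 3MO Ly6d- CLPs, 0, 0 and 1.45 CPM in 1MO Flk2+ MPPs and at 0 in 3MO Flk2+ MPPs. At 1MO, Ly6d- CLPs were at least 32.8-fold, 16.5-fold and 11.9-fold above the 3MO level for Col5a2, Col11a1 and Col2a1, with the 3MO mean set to 3 counts per library (0.235 CPM). Without replicate 3 of 1MO the bound for Col5a2 was 16.3-fold.

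Sparc and Bglap, the genes of bone matrix other than collagens, were also highest in 1MO Ly6d- CLPs. Sparc was at 22.3, 9.48 and 9.89 CPM there, 0, 7.02 and 2.45 CPM in 3MO Ly6d- CLPs, 3.45, 2.85 and 0.783 CPM in 1MO Flk2+ MPPs and 0, 2.66 and 0.496 CPM in 3MO Flk2+ MPPs. The ages of Ly6d- CLPs did not overlap (13.9 ± 7.28 CPM against 3.16 ± 3.56 CPM, a ratio of 4.40), but replicate 2 of 3MO Ly6d- CLPs had 7.02 CPM of Sparc with no count of either type I chain. With 1 library left out the ratio ran from 2.93 (without replicate 1 of 3MO) to 11.3 (without replicate 2 of 3MO). In 1MO Ly6d- CLPs the CPM of Sparc was 0.1325, 0.144 and 0.148 of that of Col1a2, a narrow range between libraries. Bglap was at 2.25, 0.395 and 2.09 CPM in 1MO Ly6d- CLPs (25, 8 and 33 counts), at 0.329 CPM in 1 library of 1MO Flk2+ MPPs (3 counts) and at 0 in the other 8 libraries. Against the limit of 3 counts, 1MO Ly6d- CLPs were at least 6.71-fold above 3MO Ly6d- CLPs.

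Lamb2 was detected in all 12 libraries. It was at 19.3, 21.2 and 1.33 CPM in 1MO Ly6d- CLPs, 1.11, 1.22 and 0.474 CPM in 3MO Ly6d- CLPs, 7.71, 16.6 and 14.4 CPM in 1MO Flk2+ MPPs and 3.49, 8.41 and 15.3 CPM in 3MO Flk2+ MPPs. Replicate 3 of 1MO Ly6d- CLPs, rich in Col1a1 at 136 CPM, thus had about as little Lamb2 as 3MO Ly6d- CLPs, while replicate 3 of 3MO Flk2+ MPPs had 15.3 CPM of Lamb2 with 0.354 CPM of Col1a1. Mean Lamb2 was 1.08 times as high in Ly6d- CLPs as in Flk2+ MPPs at 1MO, with overlapping libraries, and 0.103 times as high at 3MO, without overlap. At 3MO Col1a2 was likewise 0.105 times as high in Ly6d- CLPs, without overlap, and Col5a1 0.195 and Col1a1 0.329 times, with overlap. Sparc at 3MO went the other way, 3.00 times as high in Ly6d- CLPs, with overlap. Of the fibrillar genes, Col1a1, Col1a2 and Col11a1 did not overlap between the cell types at 1MO, with means 8.19, 6.45 and 10.1 times as high in Ly6d- CLPs, and neither did Sparc (5.88 times) or Bglap. The share of all genes that do not overlap between the cell types was not computed, so nothing is read from the number that do not. The ratio of Col1a1 was 4.95 without replicate 1 of the CLPs and 13.9 without replicate 2 of the MPPs, and that of Col1a2 was 4.26 and 9.77 without the same libraries. Bglap had 3 counts in a single library of 1MO Flk2+ MPPs, and its mean in Ly6d- CLPs was 6.31 times the mean floor of 3 counts per library there (0.250 CPM).

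All 10 genes had their highest level in a library of 1MO Ly6d- CLPs (24.1% of the 13367 genes tested did). In Ly6d- CLPs, 9 of the 10 genes, all but Col3a1, were lower in every 3MO library than in every 1MO library (6.12% of the genes tested). For Lamb2 the margin was small, with 1.33 CPM in replicate 3 of 1MO and 1.22 CPM in replicate 2 of 3MO. Col5a2, Col2a1, Col11a1 and Bglap had a count in every 1MO and in no 3MO library of Ly6d- CLPs (0.299% of the genes tested). Nothing is read from these 3 counts against the shares, because the list was drawn up with this contrast known, Col11a1 passed the filter only through 1MO Ly6d- CLPs, and Bglap is not among the genes tested. The number of these genes with a count was 10, 10 and 9 in 1MO Ly6d- CLPs, 4, 3 and 4 in 3MO Ly6d- CLPs, 7, 9 and 9 in 1MO Flk2+ MPPs and 2, 5 and 6 in 3MO Flk2+ MPPs. Within 1MO Ly6d- CLPs, 6 genes (Col1a1, Col1a2, Col5a1, Col11a1, Sparc and Bglap) were highest in replicate 1 and lowest in replicate 2. Col2a1 and Lamb2 were highest in replicate 2 and lowest in replicate 3, Col5a2 was highest in replicate 3, and Col3a1 was highest in replicate 1 and absent from replicate 3. The order of type I collagen within these 3 libraries was thus shared by Col5a1, Col11a1, Sparc and Bglap, and not by Lamb2, Col2a1, Col5a2 or Col3a1.

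As an index of this likeness, the log2 CPM (prior count 2) of each gene was correlated with the mean log2 CPM of both type I chains over the 12 libraries. Pearson's r was 0.901 for Col11a1, 0.816 for Bglap, 0.812 for Col2a1, 0.784 for Col5a2, 0.624 for Sparc, 0.610 for Col5a1, 0.592 for Lamb2 and 0.297 for Col3a1, against a median of 0.035 over the 13367 genes tested. Spearman's rho was 0.819, 0.636, 0.754, 0.755, 0.664, 0.637, 0.699 and 0.225 in the same order. Within the 6 libraries of Flk2+ MPPs, r was highest for Sparc (0.883), Col11a1 (0.754) and Bglap (0.654), and it was 0.042 for Col5a1 and -0.13 for Col3a1. Bglap had only 3 counts there, in a single library, and Col11a1 14 counts in all, so their r rests on values near the floor. Within the 6 libraries of Ly6d- CLPs, which fall into 2 ages that stand apart, it ranged from 0.449 for Col3a1 to 0.985 for Col11a1. Without the 2 libraries farthest from the median (replicate 1 of 1MO Ly6d- CLPs and replicate 2 of 3MO Ly6d- CLPs), r rose to 0.812 for Sparc and fell to 0.444 for Lamb2 and to -0.057 for Col3a1. The list was drawn up with the contrast of ages in Ly6d- CLPs known, so r over the 12 libraries is in large part set by that choice. These values describe 12 libraries in 4 groups, where 1 group carries most of the collagen and the genes share each library's depth.

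**Figure D3:**
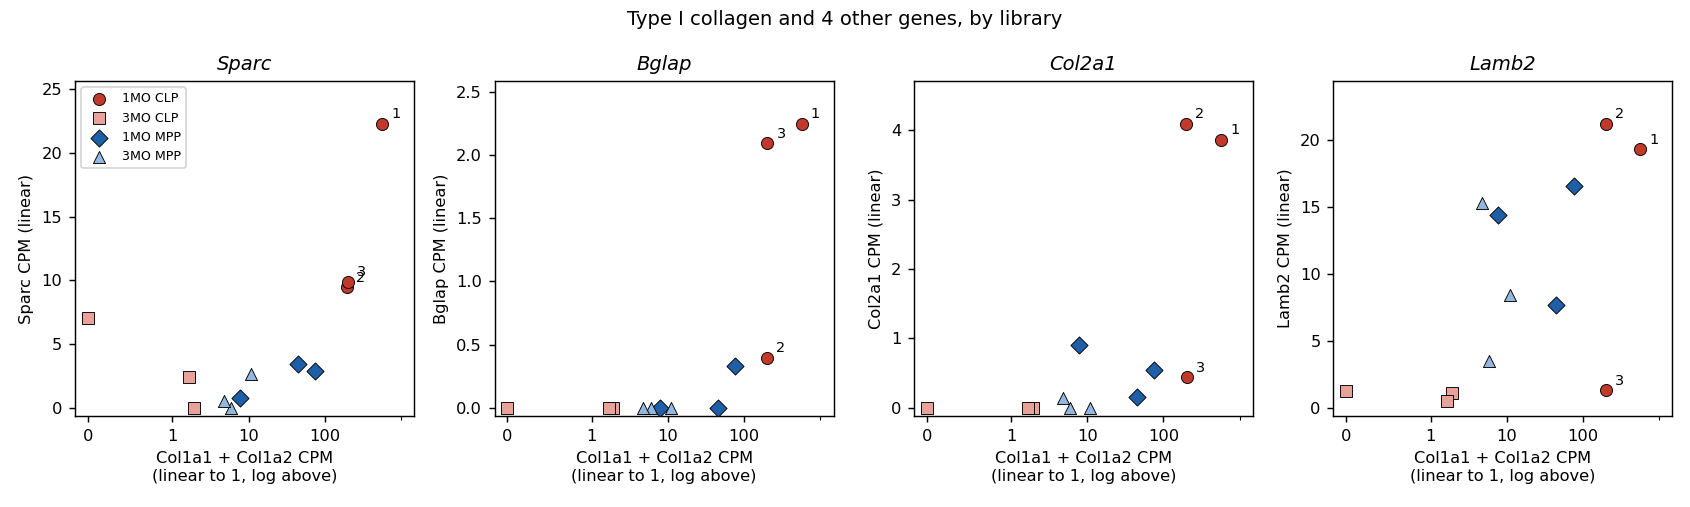
CPM of Sparc, Bglap, Col2a1 and Lamb2 (vertical axes, linear, each with its own range) against the summed CPM of Col1a1 and Col1a2 (linear up to 1 CPM, logarithmic above) in the 12 libraries, with replicate numbers for 1MO CLPs. Replicate 3 of 1MO CLPs has 203 CPM of type I collagen but 1.33 CPM of Lamb2 and 0.444 CPM of Col2a1, while its Bglap (2.09 CPM) is close to that of replicate 1.

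The contrast of ages in Flk2+ MPPs was tested with edgeR for the 9 genes that passed the filter on low counts. Bglap did not pass, and Col11a1 passed only through 1MO Ly6d- CLPs. None of the 9 was called at the adjusted threshold of 0.05 (edgeR quasi-likelihood test, Benjamini-Hochberg adjusted p = 1 for each), where 0.0224% of all genes tested were, and DESeq2 called none of the 8 for which it gave an adjusted p (it gave none for Col3a1). At an unadjusted p under 0.05, which 3.48% of all genes tested reached, edgeR had Col1a1, Col1a2, Col5a2 and Col11a1, but Col5a2 and Col11a1 entered the fit mainly or only through 1MO Ly6d- CLPs and hold 30 and 14 counts in Flk2+ MPPs, so their number is not read against that share. Mean Col1a1 was 27.2 ± 23.9 CPM at 1MO against 1.94 ± 3.06 CPM at 3MO (SD, n = 3 each), a log2 fold change of -3.715 (SE 1.14, unadjusted p = 0.0052 in the edgeR fit). Replicate 3 of 1MO (2.11 CPM) lay below replicate 2 of 3MO (5.46 CPM), so the ages overlapped. With every gene of at least 1 count in the fit, the log2 fold change was -3.706 with an adjusted p of 0.00036 (edgeR), so whether Col1a1 is called turned on the filter. Col1a2 was at 15.5 ± 10.2 CPM against 5.26 ± 0.784 CPM, a log2 fold change of -1.55 (SE 0.71, unadjusted p = 0.044 in the edgeR fit), and its ages overlapped by a small margin (5.66 CPM at 1MO below 5.92 CPM at 3MO).

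Of the other genes in Flk2+ MPPs, Col5a2, Col11a1 and Col2a1 had 1MO libraries that were all above the 3MO libraries, which holds for 4.61% of the genes tested, but with only 30, 14 and 22 counts in all at 1MO. Their fitted log2 fold changes (-6.23, -5.41 and -3.20) rest on groups at or near 0 and depend on the prior count. Sparc (log2 fold change -1.12, SE 1.20), Lamb2 (-0.50, SE 0.73) and Col5a1 (0.11, SE 1.37) had standard errors larger than the change and ages that overlapped. The ratio of the 1MO to the 3MO mean in Flk2+ MPPs was 14.1 for Col1a1, 2.96 for Col1a2, 2.25 for Sparc, 1.42 for Lamb2 and 0.929 for Col5a1. Leaving out 1 library moved several of them, to between 8.29 (without replicate 2 of 1MO) and 154 (without replicate 2 of 3MO) for Col1a1, 1.95 for Col1a2 (without replicate 2 of 1MO), 9.53 for Sparc (without replicate 2 of 3MO), 2.17 for Lamb2 (without replicate 3 of 3MO), and 0.418 or 2.06 for Col5a1 (without replicate 3 of 1MO or replicate 2 of 3MO). The ratios in Ly6d- CLPs were 349, 181, 4.40, 14.96 and 18.5 for the same genes, and whether they differed between the cell types was not tested.

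**Figure D4:**
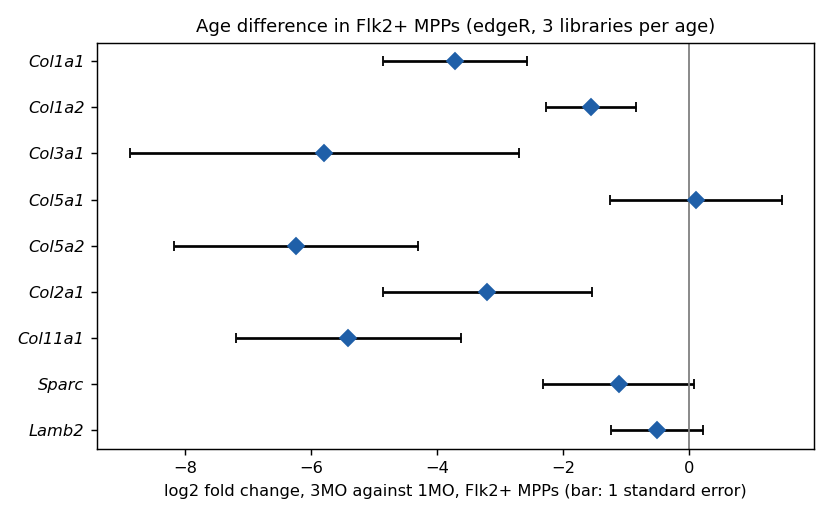
Log2 fold change of 3MO against 1MO Flk2+ MPPs (horizontal axis) for the 9 genes tested, from the edgeR fit, with bars of 1 standard error. Col1a1 is at -3.715 and Col1a2 at -1.55, Col5a1 is at 0.11, and the values of Col3a1, Col5a2 and Col11a1 lie to the left, all with no count in the 3 libraries of 3MO.

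Other genes were taken from 12 lists of 188 genes, of which 113 were tested, covering collagens and their processing, bone, cartilage, stroma, vessels, matrix receptors and proteases, macrophages and, with 9 genes, the sorted progenitors themselves. In Ly6d- CLPs a single one of them, the progenitor gene Rag1, was called (edgeR, 0.0748% of all genes tested were), and in Flk2+ MPPs none was (0.0224% of all genes tested were), with 6 lower and 4 higher at an unadjusted p under 0.05, in all 8.85% of the 113 (6.73% of 104 without the sorted progenitors) against 3.48% of all genes tested. At that p 10 were lower and 12 higher in Ly6d- CLPs, in all 19.5% (20.2% without the sorted progenitors) against 5.9%. DESeq2 called 2 of them (Mmp13 and Rag1) in Ly6d- CLPs and 3 (Kitl, Fn1 and Thbs1) in Flk2+ MPPs, out of 57 and 32 genes it called in all. Of the 113 tested genes, 14 (12.4%) were lower in every 3MO than in every 1MO library of Ly6d- CLPs, against 6.12% of all genes tested, and 3 (2.65%) in Flk2+ MPPs, against 4.61%. Conversely 5 (4.42%) were higher in every 3MO library of Ly6d- CLPs, against 4.51%, and 11 (9.73%) in Flk2+ MPPs, against 3.96%. Some list genes passed the filter on low counts only through the group where they are high, which these shares do not take into account. Unless they had the 2 highest mean CPM of a list or were called, the genes named below were picked after their values were seen.

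Of 18 osteoblast and osteocyte genes, 6 were tested and edgeR called none in either cell type, with a median log2 fold change in Ly6d- CLPs of -0.51, against -0.01 over all genes tested. The list's summed level overlapped between the ages (502.5 to 648 CPM at 1MO and 483 to 623 CPM at 3MO in Ly6d- CLPs, 329 to 406 CPM and 321 to 437 CPM in Flk2+ MPPs), and most of it was Runx2, a transcription factor of osteoblasts that blood progenitors also express, at 301 to 629 CPM in every library. Postn, a matrix protein of the periosteum, had the next highest CPM, at 9.06 to 29 CPM in Flk2+ MPPs and 1.90 to 9.38 CPM in Ly6d- CLPs. Among defining genes, the osteoblast factor Sp7 was at 0.539, 0 and 0 CPM in 1MO and 0, 0 and 0.553 CPM in 3MO Ly6d- CLPs, and the osteocyte genes Sost, Mepe and Fgf23 had no count in any library. Ibsp, a bone sialoprotein, was at 0.539, 2.96 and 0.127 CPM and Dmp1, an osteocyte matrix protein, at 0.629, 0.494 and 0.190 CPM in 1MO Ly6d- CLPs, and both had no count in the 6 libraries of 3MO. Ibsp was highest in replicate 2 and Bglap lowest there. Of the 18 genes, 8 had their highest level in a library of 1MO Ly6d- CLPs, among them 4 of the 6 tested (24.1% of all genes tested did). Spp1 was the only 1 of the 6 that was lower in every 3MO library of Ly6d- CLPs (6.12% of all genes tested were). It was at 3.69, 4.05 and 4.19 CPM at 1MO and 2.42, 2.27 and 1.11 CPM at 3MO. Other genes of the list had their highest level elsewhere, such as Ifitm5 in 1MO Flk2+ MPPs (1.21 CPM) and Alpl, the phosphatase of mineralizing cells, in 3MO Flk2+ MPPs (2.30 CPM), while Phex reached 3.69 CPM in 1MO Ly6d- CLPs and 2.96 CPM in 3MO Flk2+ MPPs.

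Of 13 chondrocyte genes, a single gene was tested and it was not called, and the summed level of the list was 0.634 to 5.83 CPM in 1MO Ly6d- CLPs, 0 to 2.72 CPM in 3MO Ly6d- CLPs, 0.542 to 1.87 CPM in 1MO Flk2+ MPPs and 0 to 2.30 CPM in 3MO Flk2+ MPPs. Col10a1, the collagen of hypertrophic cartilage, was at 2.25, 4.35 and 0.190 CPM in 1MO Ly6d- CLPs, in the order of Col2a1 (replicate 2 highest, replicate 3 lowest), and had no count at 3MO. Acan, the cartilage proteoglycan, was at 2.52, 0.494 and 0 CPM in 1MO Ly6d- CLPs and at 0 in the other 9 libraries. Sox9, the chondrocyte transcription factor, had no count in any library. Col9a3, a chain of type IX collagen, was at 0 to 2.21 CPM with no order by group, Col9a2, another of its chains, had counts only in replicate 1 of 3MO Ly6d- CLPs (1.61 CPM), and Comp, a cartilage matrix protein, was highest in 3MO Flk2+ MPPs (1.37 CPM).

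Of 18 genes of marrow mesenchymal stroma, 11 were tested and edgeR called none, with a median log2 fold change of 0.01 in Ly6d- CLPs and -0.05 in Flk2+ MPPs. Their summed level was 593 to 656 CPM in 1MO and 481 to 673 CPM in 3MO Ly6d- CLPs, and 807 to 868 CPM in 1MO and 743 to 870.1 CPM in 3MO Flk2+ MPPs. Igfbp4, a binding protein of insulin-like growth factors, and Angpt1, the ligand of the receptor Tie2, made up most of it. Cxcl12, the chemokine of marrow stroma, was at 6.11, 3.16 and 4.63 CPM in 1MO Ly6d- CLPs, the order of type I collagen, and 1.31, 0 and 1.19 CPM in 3MO Ly6d- CLPs. It was also at 7.40 CPM in replicate 1 of 3MO Flk2+ MPPs, which had no Col1a1 but 5.92 CPM of Col1a2. Igfbp5, another binding protein of these growth factors, at 5.84, 1.63 and 1.78 CPM at 1MO and 1.21, 0 and 0.079 CPM at 3MO, and the adhesion molecule Vcam1, at 6.47, 3.51 and 7.29 CPM and 2.82, 0.608 and 3.40 CPM, were also lower in every 3MO library of Ly6d- CLPs, which makes 3 of the 11 with Cxcl12 (6.12% of all genes tested). Kitl, the stem cell factor, was at 14.5, 1.75 and 1.20 CPM in 1MO and 0, 0.0719 and 0 CPM in 3MO Flk2+ MPPs, where DESeq2 called it lower and edgeR did not (adjusted p = 0.81). Adipoq, a gene of adipocyte-like stroma, had no count in any library, and Lepr, a receptor that marks marrow stroma, was at most 0.360 CPM in 1MO Ly6d- CLPs and at 4.90 CPM in replicate 3 of 3MO Ly6d- CLPs.

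Of 16 fibroblast and matrix genes, 7 were tested and edgeR called none, whereas DESeq2 called Fn1 and Thbs1 in Flk2+ MPPs, and their summed level was 109 to 156 CPM in 1MO and 133 to 225 CPM in 3MO Ly6d- CLPs, 49.3 to 102 CPM in 1MO and 198 to 239 CPM in 3MO Flk2+ MPPs. These were the 2 genes with the highest CPM, with higher means at 3MO in both cell types, and edgeR called both in Flk2+ MPPs when every gene of at least 1 count was fitted, as it did Thbs1 in Ly6d- CLPs. Fn1 (fibronectin) had a log2 fold change of 0.72 (SE 0.33) in Ly6d- CLPs and 1.49 (SE 0.34) in Flk2+ MPPs, with edgeR adjusted p of 0.84 and 0.42. Thbs1 (thrombospondin 1) had 2.08 (SE 0.78) and 4.44 (SE 0.87), with edgeR adjusted p of 0.78 and 0.31. In Ly6d- CLPs it was at 5.03, 7.75 and 2.47 CPM at 1MO and 6.25, 5.09 and 53.7 CPM at 3MO, so its higher mean rests on replicate 3 of 3MO, without which the ratio of 3MO to 1MO went from 4.26 to 1.12. Dcn and Lum, small proteoglycans that bind fibrillar collagen, were at 1.26, 0.247 and 0.825 CPM and at 0.629, 0.0988 and 1.21 CPM in 1MO Ly6d- CLPs, and both had no count in the 6 libraries of 3MO. Fbn1 (fibrillin 1) was at 38.8, 44.1 and 35.3 CPM in 1MO and 20.8, 17.5 and 24.1 CPM in 3MO Ly6d- CLPs (log2 fold change -0.92, SE 0.30, edgeR adjusted p = 0.65). It was the only 1 of the 7 tested genes lower in every 3MO library there (6.12% of all genes tested were). Among the rest, Bgn (biglycan) was at 2.61, 1.09 and 6.53 CPM in 1MO and 0, 5.69 and 0 CPM in 3MO Ly6d- CLPs. Fap (fibroblast activation protein) was at 9.12 CPM in replicate 2 of 3MO Ly6d- CLPs, Timp3, a protease inhibitor, reached 5.54 CPM in 3MO Flk2+ MPPs, and Mgp had no count in any library.

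**Figure D5:**
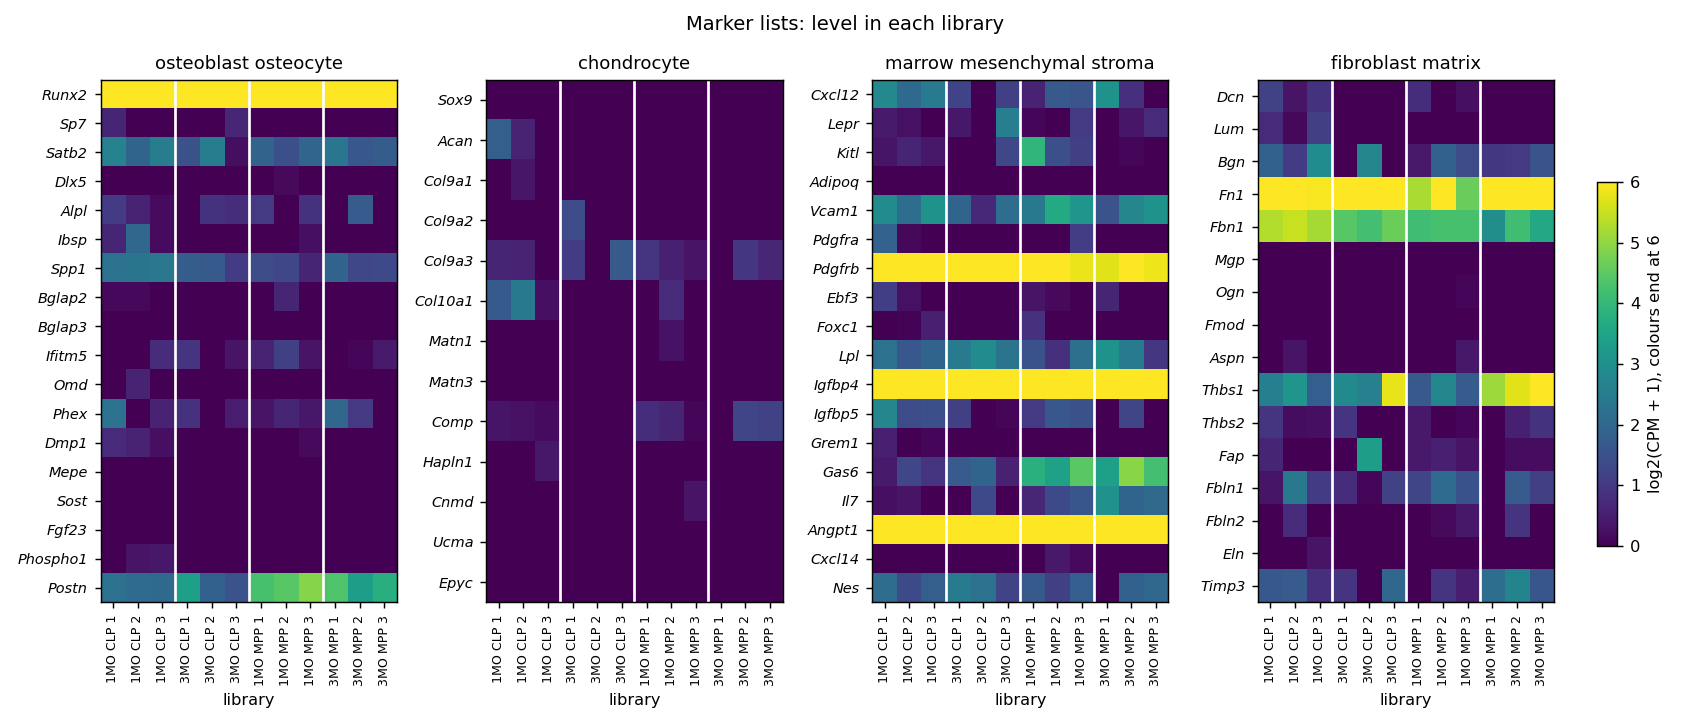
Colour shows log2(CPM + 1), ending at 6, of the genes (rows) of the osteoblast and osteocyte, chondrocyte, marrow mesenchymal stroma and fibroblast and matrix lists in the 12 libraries (columns, grouped by cell type and age). Most rows are at or near 0 throughout, a few such as Runx2, Pdgfrb, Igfbp4, Angpt1 and Fn1 are high throughout, and Ibsp, Dmp1, Acan, Col10a1, Dcn and Lum are detected mainly in 1MO CLPs.

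Of 32 genes that modify and fold collagen chains, 24 were tested and edgeR called none in either cell type, with median log2 fold changes of -0.06 in Ly6d- CLPs and 0.05 in Flk2+ MPPs. P3h1, Fkbp10 and Tmem38b, 3 of the 24, were lower in every 3MO than in every 1MO library of Ly6d- CLPs (6.12% of all genes tested were), among them the collagen-folding isomerase Fkbp10 at 0.899, 2.07 and 0.507 CPM at 1MO and 0 at 3MO. Fkbp14, another isomerase of this kind, was higher in every 3MO library, at 3.63, 1.77 and 0.869 CPM against 0.270, 0.0494 and 0.0634 CPM. At an unadjusted p under 0.05 in Ly6d- CLPs the list had 2 lower genes, P3h1 and Fkbp10, and 3 higher ones, Fkbp14 (log2 fold change 4.02, SE 1.33), P3h3 (1.56, SE 0.47) and Loxl3 (2.43, SE 0.96), in all 20.8% of the 24. P4hb, a subunit of prolyl 4-hydroxylase, was at 207 to 422 CPM over all 12 libraries and Colgalt1, a collagen galactosyltransferase, at 91.6 to 238 CPM. Serpinh1, the collagen chaperone, was at 4.76, 3.11 and 5.71 CPM in 1MO Ly6d- CLPs and 4.03, 3.70 and 1.42 CPM in 3MO Ly6d- CLPs, overlapping ages. Of 20 other collagens, 11 were tested and edgeR called none. Those with the highest CPM, Col4a1 and Col4a2, which form the type IV collagen of basement membranes, lay at 30.1 to 83.7 and 43.8 to 61.2 CPM in Flk2+ MPPs and at 0.608 to 16.5 and 1.42 to 15 CPM in Ly6d- CLPs, so the cell types did not overlap and their order was the reverse of type I at 1MO. Col6a1 and Col12a1, collagens that bind fibrils, were at 1.89, 1.53 and 0.951 CPM and at 2.79, 0.938 and 0.761 CPM in 1MO Ly6d- CLPs, and both had no count at 3MO in either cell type. Of the tested collagens of this list, 2 had an unadjusted p under 0.05 (5.9% of all genes tested did) with a lower level in 3MO Ly6d- CLPs, Col6a1, which passed the filter only through 1MO Ly6d- CLPs, and Col12a1, and 2 with a higher one, Col16a1 (log2 fold change 2.43, SE 0.85, called by edgeR with every gene of at least 1 count, but at 18.8, 21.3 and 0.474 CPM at 3MO against 1.62, 0.938 and 4.95 CPM at 1MO, so replicate 3 of 3MO was below every 1MO library) and Col4a5 (6.83, SE 2.49, with 11.3 CPM in replicate 1 of 3MO and 0 in the others).

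Of 14 laminin and basement membrane genes, 7 were tested and edgeR called none. Lamc1, the gamma chain that joins Lamb2 in most laminins, was at 25.5 to 71.8 CPM and Agrn (agrin) at 9.80 to 35.1 CPM, both with overlapping ages. The ages of Lamb2 in Ly6d- CLPs were apart only by a small margin. Replicate 3 of 1MO was at 1.33 CPM (21 counts) and replicate 2 of 3MO at 1.22 CPM (22 counts). Lamb1, which encodes an alternative beta chain, was at most 1.82 CPM. Of 17 receptors for collagen and laminin, 12 were tested and edgeR called none, and Cd44 (286 to 562 CPM) and Itgb1 (171 to 301 CPM) were high in all 12 libraries. At an unadjusted p under 0.05 in Ly6d- CLPs (edgeR), 4 of the 12 (Itga2, Itga6, Lair1 and Mrc2) were higher at 3MO and 0 lower. That p was reached by 5.9% of all genes tested, in either direction. Of the 4, only Itga6 was higher in every 3MO than in every 1MO library, which holds for 4.51% of all genes tested. Of 8 matrix proteases and inhibitors, 6 were tested and none was called in the edgeR fit, and Timp2 and Mmp2 lay at 5.84 to 33.4 and 3.06 to 31.8 CPM. Mmp13, the collagenase of bone and cartilage, was at 7.19, 1.98 and 0.634 CPM in 1MO Ly6d- CLPs and had no count in the 6 libraries of 3MO.

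Of 15 endothelial genes, 14 were tested and edgeR called none, Pecam1 (121 to 299 CPM) and Eng (62.0 to 148 CPM) being high throughout, and Cdh5, the junction protein that defines endothelium, was at 1.35, 0.938 and 1.78 CPM in 1MO Ly6d- CLPs against 0, 0 and 0.237 CPM at 3MO. The median log2 fold change of the list in Ly6d- CLPs was -0.38, Tie1, a receptor of endothelium and of blood stem cells, was at 1.84 to 6.17 CPM at 1MO and 6.09 to 8.57 CPM at 3MO, and Stab2, a scavenger receptor of sinusoids, reached 25.8 CPM in replicate 1 of 3MO. Of 8 osteoclast and macrophage genes, 5 were tested and edgeR called none. The myeloid receptor Csf1r was at 89.8, 92.7 and 112 CPM in 1MO Ly6d- CLPs and 47.2, 112 and 80.9 CPM in 3MO Ly6d- CLPs, and Vcan (versican) at 0.317 to 10.5 CPM over all libraries. Of the 9 genes of the sorted progenitors, all tested, Dntt and Flt3 had the highest CPM, and Rag1, which cuts antigen receptor genes, was at 265, 197 and 326 CPM in 1MO and 79.8, 83.9 and 126 CPM in 3MO Ly6d- CLPs (log2 fold change -1.44, SE 0.25, edgeR adjusted p = 0.043). That call was lost in 9 of 12 fits with a library left out and with only the 6 libraries of Ly6d- CLPs. The part of other cell types or of free RNA in the levels of the 10 genes was not tested.

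The 10 other genes most like type I collagen over the 12 libraries had r from 0.806 to 0.911. They included C1qa, a chain of complement C1q (r = 0.911), Gm49519 (0.911), the receptor phosphatase Ptprm (0.891), Utp6 (0.832), the lamin B receptor gene Lbr (0.827), Hmga2 (0.819), Ulbp1 (0.818), Pus7l (0.814) and Clcc1 (0.806). None of the bone, cartilage or stroma lists supplied a gene to these 10. C1qa was at 1.62, 2.17 and 2.60 CPM in 1MO Ly6d- CLPs, 0, 0 and 0.079 CPM in 3MO Ly6d- CLPs, 2.01, 2.74 and 0.963 CPM in 1MO Flk2+ MPPs and 0, 0.935 and 0.071 CPM in 3MO Flk2+ MPPs. Its partner chains C1qb and C1qc, looked up after that, had counts at both ages in each cell type. Hmga2, a chromatin protein of fetal-type progenitors, was the only 1 of the 10 called. Its level was lower at 3MO in Ly6d- CLPs (log2 fold change -1.66, SE 0.23, edgeR adjusted p = 0.0073) and in Flk2+ MPPs (-1.84, SE 0.24, edgeR adjusted p = 0.0045). The 10 were picked by likeness to type I collagen over the same libraries, which is high at 1MO and near 0 in 3MO Ly6d- CLPs. A lower level at 3MO is thus in part set by that choice. The number called among them is therefore not read against the shares of all genes tested (0.0748% for Ly6d- CLPs, 0.0224% for Flk2+ MPPs).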

How the data were processed

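RNA of sorted Ly6d- CLPs and Flk2+ MPPs was sequenced in 12 libraries. The authors processed the reads in a pipeline that, per the labels, used FastQC, UMI-tools, Trim Galore, STAR, Salmon and DESeq2 with mm10, and deposited the estimated counts of all genes in 1 table, with transcript length but no library depth corrected for. The annotation release and the strand setting of the counting are not given in the sources used here. Column names gave the sample of each of the 12 columns (0 unmatched).

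Estimated counts were rounded and analysed in R 4.3.3 with edgeR 4.0.16: filterByExpr by group (minimum count 10, 13367 genes kept), TMM scaling, and the quasi-likelihood test in 1 fit of the 4 groups, with Benjamini-Hochberg adjustment over all genes tested and a threshold of 0.05. Log2 CPM used a prior count of 2. Fitted log2 fold changes of genes at 0 in a group depend on a prior count. A fold against a group with no count used a floor of 3 counts per library, and floors cover counting error only. Coordinates and transcript lengths are from GENCODE M21, which matched 32158 of 32285 genes, start regions from RefSeq. All replicate pairs differed beyond counting noise. In simulated counts for 13367 genes, 112 of 200 genes changed 3-fold were recovered in the contrast of Ly6d- CLPs (56%) and 107 (53.5%) in that of Flk2+ MPPs, with 3 and 2 unchanged genes called.

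The 10 genes, the lists and the tests were chosen with earlier results of these data known. Lists were written from general knowledge. Named were the 10 genes, the 10 others most like type I collagen, and from each list the 2 with the highest mean CPM and any called, and 1 gene named by this rule is not reported here. No set test was run. Alternatives were DESeq2 1.42.0 (size factors, Wald test), other filters, a prior count of 0.5, a replicate block, only the 6 libraries of a cell type, and each library left out.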

Additional observations from a re-analysis of the deposited data

How the results depend on the processing

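In Ly6d- CLPs all 152 refits of the members under the alternatives kept a log2 fold change below 0. In Flk2+ MPPs 144 of 149 refits of the members kept their direction and were not called, DESeq2 giving no adjusted p for Col3a1. Col1a1 passed it with every gene of at least 1 count in the fit (-3.706, edgeR adjusted p = 0.00036), and its values with a library left out ran from -6.955 to -2.956, all short of the threshold. Col5a1 in Flk2+ MPPs reversed to -0.473 without replicate 1 of 1MO and to -1.01 without replicate 2 of 3MO, with 1.292 as the highest value (without replicate 3 of 1MO), and Col3a1 ran from -6.374 to 0, the latter without replicate 3 of 1MO, its only MPP library with a count. The causes of the other changes were not tested.

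Of the 18 pairs of same-numbered libraries, 14 had an r of deviations above 0 and 5 above 0.1 (-0.034 to 0.213, median 0.067), against 12 and 1 of 36 pairs of different numbers (median -0.03). Between the ages r was 0 to 0.114 for Ly6d- CLPs and -0.013 to 0.213 for Flk2+ MPPs, and between the cell types of 1 age -0.034 to 0.204. The study sorted both cell types from each mouse, and the column names give the libraries of a replicate number consecutive sample indices. The labels do not tie numbers to mice or say what a number shares, and not every pair was above 0.1. The main fit therefore took no pairs, and what a number marks was not tested. With a replicate block, the calls numbered 11 in Ly6d- CLPs and 3 for Flk2+ MPPs, list genes among them 1 and 0, Col1a1 in Flk2+ MPPs was at -3.511, and Col5a1 reversed to -0.023.

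The number of genes called in Ly6d- CLPs, reported as 10, was 46 with every gene of at least 1 count, 4 with at least 10 counts in every library, 57 with DESeq2 and 4 with only the 6 libraries of the cell type. With 1 library left out it was 6 to 10, the lowest without replicate 1 of 1MO or replicate 2 of 3MO. For Flk2+ MPPs the number was 3, and it became 26, 1 and 32 under the first 3 of these settings, and 3 to 5 with 1 library left out, the highest without replicate 2 of 3MO. List genes called in Ly6d- CLPs, reported as 1, were 3 (Thbs1, Col16a1, Rag1), 0, 2 (Mmp13, Rag1) and 0 under the 4 settings, and 0 to 1 with a library left out, Rag1 being lost in 9 of 12 such fits. In Flk2+ MPPs they were 2 (Fn1, Thbs1) with every gene of at least 1 count, 3 (Kitl, Fn1, Thbs1) with DESeq2 and 1 (Thbs1) with only 6 libraries, in place of 0, and 0 to 1 with a library left out. The median r of the 8 other members with type I collagen, 0.704, was 0.622 to 0.797 with a library left out, the lowest without replicate 1 of 1MO Ly6d- CLPs. The number of members highest in a 1MO Ly6d- CLP library was then 9 to 10. Depth limits Col3a1, Col5a2, Col2a1, Col11a1 and Bglap, which had under 10 counts in most libraries, so their absence from a 3MO library means a level under 0.317 CPM at most.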
